A study of Bos taurus with 2 samples.

Results

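The miR-30 family was described across the 2 fractions of cow milk whey, a pellet that the labels call exosome and the supernatant left above it. Its members were taken by name, as every miRNA entry of the bovine array called miR-30a to miR-30f, with or without an arm suffix, which gave 7 of 670 miRNAs. These are bta-miR-30a-5p, bta-miR-30b-5p, bta-miR-30b-3p, bta-miR-30c, bta-miR-30d, bta-miR-30e-5p and bta-miR-30f. The rule reads names alone.

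The exosome sample is RNA from the whey pellet of Holstein raw milk, collected at 10000 g over 90 min at 4 °C and washed with phosphate-buffered saline. The supernatant sample is RNA from the liquid taken off above the pellet. For each, RNA of 3 milk samples was pooled, and 40 ng was labelled with the dye Cy3 and put on 1 miRNA microarray (glass-bound probes that bind labelled small RNA), so each fraction rests on 1 array and no test between fractions was possible. No allele or drug is involved, and both fractions share the pooling. An exosome is a small vesicle released by cells. The labels name the pellet as such and call the spin ultracentrifugation, a word for higher forces than the one given, so the force may be mistyped and what the pellet holds is uncertain. No vesicle marker was measured here. Since equal RNA mass was labelled, the arrays show neither the number of vesicles nor the RNA per vesicle.

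MicroRNAs are short RNAs that guide Argonaute proteins to messenger RNAs and lower their output. Members of the miR-30 family share their seed, the stretch near the 5′ end that pairs with targets, and differ mainly towards the 3′ end. This holds for the 5p arms, whereas a 3p arm such as miR-30b-3p has another seed and was included by its name. The family is widely expressed in epithelial cells. In mice, excess miR-30b in the mammary gland was reported to impair lactation and to delay involution.

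The array reads the 3′ side of each miRNA, because its probes start at the complement of the miRNA's 3′ end. The longest probe of each member is printed here because its letters set which members the array can tell apart. Sequences are those of the array design, 5′ to 3′. In the first 3, capitals mark the pair of positions at which the members differ; in the next 3, the run of 9 bases common to all 3; and in the last, the run of 7 bases that also occurs in the reverse complement of the miR-30b-5p probe.
bta-miR-30a-5p: agcttccagtcGAgg
bta-miR-30d: agcttccagtcGGgg
bta-miR-30e-5p: agcttccagtcAAgga
bta-miR-30b-5p: agctGAGTGTAGGatgtt
bta-miR-30c: gctgaGAGTGTAGGatgt
bta-miR-30f: agctgaGAGTGTAGGgt
bta-miR-30b-3p: aagtaAACATCCacctcc

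The probes fell into 2 letter groups and 1 odd one. Within the first group, the miR-30a-5p probe differs from that of miR-30d by A13G and from that of miR-30e-5p by G12A, counted from 1 at the probe's 5′ end with the miR-30a-5p base first. The miR-30d probe differs from the miR-30e-5p probe by G12A and G13A. In the second group the miR-30c and miR-30f probes share a run of 14 bases and differ by A15G, counted on the miR-30c probe, with the miR-30f probe moved by 1 base. The miR-30b-5p probe shares a run of 13 bases with miR-30c and 9 with miR-30f. Between the groups the longest shared run was 4 bases. bta-miR-30b-3p comes from the opposite arm of the miR-30b hairpin, and its 7 capital letters are also the first letters of the stretch of miR-30b-5p that the longest miR-30b-5p probe reads, written as DNA with the same letters in capitals, since the arms of a hairpin pair with each other.
bta-miR-30b-5p, stretch read by the longest probe: AACATCCtacactcagct

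The nearest probe outside the family belonged to miR-2900, with 2 mismatches to the miR-30a-5p and miR-30d probes over 12 bases. It was detected on neither array, at -3.91 ± 2.54 in exosome and -4.61 ± 3.09 in supernatant. miR-3432 also came within 2 mismatches of a family probe, that of miR-30b-3p, and was detected on neither array.

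The genes lie in 3 pairs, and each pair holds 1 member of each letter group. In the array design's build, HGSC Btau_3.1, the longest miR-30d probe is placed at chr14:6473537-6473550 and the longest miR-30b-5p probe at chr14:6477886-6477903, with 4335 bases between the probes of these members. The longest miR-30f probe is placed at chr9:9851463-9851478 and that of miR-30a-5p at chr9:9888805-9888818, 37326 bases apart. The longest miR-30c probe is placed at chr3:112437461-112437477 and that of miR-30e-5p at chr3:112440589-112440603, 3111 bases apart. The longest miR-30b-3p probe is placed at chr14:6477924-6477940, beside miR-30b-5p. The design lists 12 of the 15 family probes with an interval 1 base short of the probe length, which leaves an end uncertain by that base. By RefSeq's annotation of another build, ARS-UCD2.0, consulted for overlaps alone, MIR30C and MIR30E overlap the protein-coding gene NFYC, a subunit gene of a CCAAT-binding transcription factor. MIR30A overlaps an uncharacterised protein-coding gene, and MIR30B, MIR30D and MIR30F overlap no gene. Exons were not annotated in the table used.

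**Figure D1:**
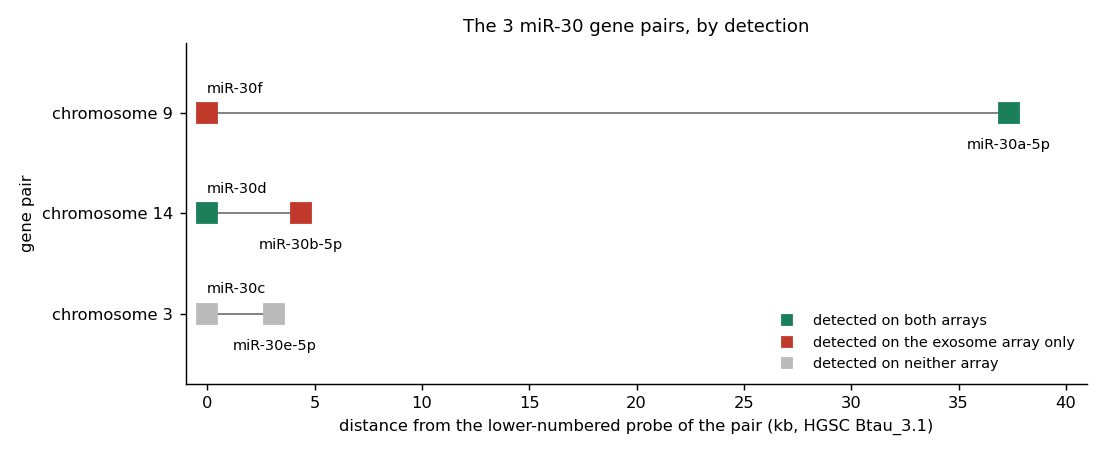
Position of the 3 miR-30 gene pairs, each as the distance in kb from its lower-numbered probe, with squares coloured by the array on which the member was detected. On chromosomes 9 and 14 each pair holds 1 member detected on both arrays and 1 detected on the exosome array only; on chromosome 3 both members were detected on neither array.

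Signals are processed signals, that is spot brightness after background subtraction, in scanner units. Each ± value is the SD among spots on the same array, so it holds technical spread alone. Detection of a probe took 50% or more of its spots being flagged well above background by the scanner software, and a miRNA needed at least 1 such probe. The family had 420 spots on 15 probes on each array, with 8 outlier spots left out in exosome and 13 in supernatant. No miRNA spot was saturated. The negative controls averaged 4.67 ± 3.46 over 981 exosome spots and 4.41 ± 3.35 over 976 supernatant spots.

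The first comparison asked which members each fraction held. The exosome array detected 4 of the 7 members, where it detected 9.85% of all 670 miRNAs. The supernatant array detected 2 of the 7, against 12.7% of all miRNAs. miR-30a-5p and miR-30d were on both arrays, a class that holds 4.48% of all miRNAs. miR-30b-5p and miR-30f were on the exosome array only, as 5.37% of all miRNAs were. No member was on the supernatant array only, a class with 8.21% of all miRNAs, so a count of 0 in 7 is near that share. miR-30c, miR-30e-5p and miR-30b-3p were on neither, as 81.9% of all miRNAs were. By letters, the pair on both arrays belongs to the first group and the pair on the exosome array only to the second, and each group has 1 undetected member.

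bta-miR-30d, which in people has been reported as a miRNA secreted by the endometrium, was detected in both fractions, with brighter spots on the supernatant array before scaling. Its 15-base probe read 84.8 ± 7.29 in exosome and 204 ± 13.2 in supernatant (30 spots each), with spots from 71.1 to 101 and from 169 to 225. Its 14-base probe read 20.4 ± 4.13 on the exosome array, where 21 of 30 spots were well above background, and 39.2 ± 4.32 on the supernatant array, where all 29 were. The spots of the 2 arrays did not overlap for either probe. Here and for the members below, spots on the same array are technical repeats. The share of all probes whose spots did not overlap is not given, so non-overlap is description alone. Over both probes miR-30d read 52.6 ± 5.93 in exosome and 122 ± 9.82 in supernatant. It was the only member with every probe detected on the exosome array.

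bta-miR-30a-5p, known in human cells to act on the autophagy gene BECN1, was likewise detected in both fractions and brighter on the supernatant array before scaling. Its 15-base probe read 71.2 ± 7.32 on the exosome array, with spots from 58.3 to 82.6, and 143 ± 10.4 on the supernatant array, with spots from 128 to 159. The spots of the 2 arrays did not overlap, and all 30 were well above background on each. Its 14-base probe was near the limit: 0 of 29 exosome spots were well above background, at 8.13 ± 3.48, and 18 of 30 supernatant spots were, at 18.8 ± 3.98. That supernatant value was the lowest of any probe detected there. Over both probes miR-30a-5p read 39.7 ± 5.73 in exosome and 80.8 ± 7.89 in supernatant.

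bta-miR-30b-5p, the member linked to lactation in mice, was detected in the pellet alone. Its 18-base probe read 78.7 ± 6.43 on the exosome array, with spots from 66.8 to 87.9, and -0.91 ± 3.56 on the supernatant array, with spots from -7.98 to 5.05. All 20 exosome spots and 0 of 20 supernatant spots were well above background. The 17-base probe read 22.3 ± 4.26 on the exosome array, where 18 of 20 spots were well above background, and -1.83 ± 1.59 on the supernatant array. There 6 of its spots were outliers and 14 were used. The shortest probe, of 16 bases, was not detected on either array, at 4.16 ± 1.97 and -1.45 ± 1.96 on the exosome and supernatant arrays. The longer probes each had spots that did not overlap between the arrays, which largely restates their detection on the exosome array only.

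bta-miR-30f, a cattle-named member whose probe differs from that of miR-30c by 1 base, was also detected in the pellet alone. Its 17-base probe read 39.2 ± 5.70 on the exosome array, with spots from 28.3 to 48.5, and 0.66 ± 2.67 on the supernatant array, with spots from -5.58 to 6.59. All 30 exosome spots and 0 of 28 supernatant spots were well above background. Its 16-base probe was not detected on either array, at 5.30 ± 3.28 in exosome and -2.49 ± 2.48 in supernatant.

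**Figure D2:**
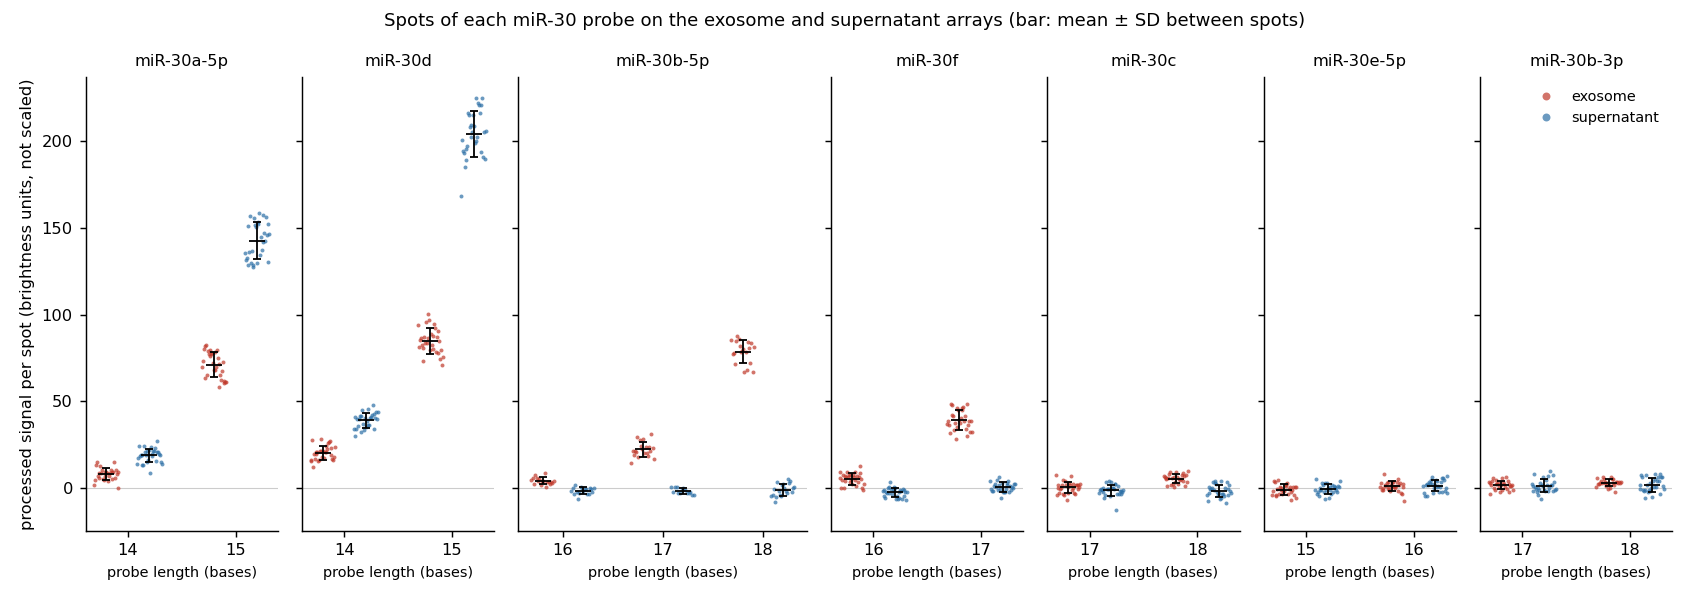
Processed signal of each spot, not scaled, for every probe of the 7 members, with exosome spots left of supernatant spots, the probe length in bases on the x axis, and bars for the mean ± SD between spots. The miR-30a-5p and miR-30d spots are brighter on the supernatant array, those of the longer miR-30b-5p and miR-30f probes stand above the rest on the exosome array only, and the other 3 members lie near 0.

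The remaining members lay at background. bta-miR-30c, known to act on the lipid transfer gene MTTP in mice, read 2.93 ± 2.97 in exosome and -1.38 ± 3.38 in supernatant. Its 18-base probe read 5.47 ± 2.604 on the exosome array, close to the negative control spots there, and -1.47 ± 3.49 on the supernatant array. Under a looser rule that takes positive and significant spots, 21 of its 28 exosome spots counted and 3 of 29 supernatant spots, so miR-30c joined the detected members of the exosome array. That rule gave 5 members on the exosome array, where 26.3% of all miRNAs passed it, and 2 on the supernatant array, where 27% did.

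bta-miR-30e-5p read 0.092 ± 2.93 in exosome and 0.50 ± 3.02 in supernatant. Its 15-base probe, 1 base away from the 15-base miR-30a-5p probe, read -0.85 ± 2.97 and -0.41 ± 2.74 on the exosome and supernatant arrays, with 0 of 30 spots well above background on each. These values leave no signal on the miR-30e-5p probe above the negative control spots. Whether miR-30a-5p and miR-30d, or miR-30c and miR-30f, share signal was not tested. bta-miR-30b-3p read 2.36 ± 2.27 in exosome and 1.62 ± 3.91 in supernatant, so of the miR-30b hairpin the array detected the 5p arm and not the 3p arm.

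The second comparison asked how far the members differed between the fractions. The answer depends on how the arrays are scaled, because the arrays differed in overall brightness. For the 53 probes seen in both fractions the 75th percentile of signal came to 473 for exosome and 15030 for supernatant. Their log2 ratio was -4.99, which dividing by these percentiles takes out of every log2 difference, exosome over supernatant. Spiked labelling controls were brighter on the exosome array by 1.82 (dmr_285) and 1.39 (dmr_31a) on the log2 scale, while dmr_3 and dmr_6, added for hybridisation, stood at -0.080 and -0.092.

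After that scaling the log2 difference was 3.96 ± 0.25 for miR-30a-5p and 3.78 ± 0.20 for miR-30d, 15.6-fold and 13.7-fold higher in exosome. Both were at least 2-fold higher in exosome, as were 53.3% of the 30 miRNAs detected on both arrays. Without scaling the differences were -1.03 and -1.21, which is 2.04-fold and 2.31-fold higher in supernatant, and 70% of the 30 miRNAs were then at least 2-fold higher in supernatant. Of 7 scalings, 3 gave a positive and 4 a negative difference for each of these members, from -2.63 to 3.96 for miR-30a-5p and from -2.81 to 3.78 for miR-30d. The direction for miR-30a-5p and miR-30d is therefore not settled by these arrays.

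The members can be compared with each other without that choice, since dividing an array by 1 factor moves all of them alike. The log2 differences for miR-30a-5p and for miR-30d lay 0.18 apart, with an SD between single spots of 0.32. That SD is neither the error of the means nor a spread between arrays, so whether these members differ was not settled. By probe, the unscaled log2 difference was -1.004 ± 0.18 for the 15-base probe of miR-30a-5p. The 15-base and 14-base probes of miR-30d gave -1.27 ± 0.16 and -0.94 ± 0.33.

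miR-30b-5p and miR-30f have only a lower bound, and it depends on the floor. Over all probes of a member, the floor was the lowest signal of any miRNA detected on the supernatant array, 7.04, a mean that takes in undetected probes. Against it miR-30b-5p was at least 4.98-fold higher in exosome without scaling and at least 158-fold higher with it, and miR-30f at least 3.16-fold and 100.5-fold.

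By detected probe, the floor was the lowest signal of any probe detected on the supernatant array, 18.8, and the bounds were lower. The 18-base miR-30b-5p probe was at least 4.18-fold higher in exosome without scaling and 132.9-fold with it, and the 17-base probe at least 1.19-fold and 37.7-fold. The 17-base miR-30f probe was at least 2.08-fold and 66.2-fold higher. Scaled to the labelling controls, the log2 bounds over all probes were 0.71 for miR-30b-5p and 0.059 for miR-30f. By detected probe that scaling left a bound for the 18-base miR-30b-5p probe, at 0.46, and none for its 17-base probe (-1.36) or for miR-30f (-0.54). Under that scaling and floor, an exosome excess of miR-30f is not shown.

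Set against miR-30a-5p, the exosome excess of miR-30b-5p was at least 3.34 larger on the log2 scale, or 10.1-fold, and that of miR-30f at least 2.69 larger, or 6.44-fold. Set against miR-30d the gaps were at least 3.53 and 2.87. Under any common factor, the bound of miR-30b-5p lay above the difference of its chromosome 14 neighbour, and that of miR-30f above its chromosome 9 neighbour. Both bounds belong to members detected on the exosome array only. The gaps therefore partly restate the detection split and are no separate support for it. With the longest probes and the lowest detected probe as the floor, the gaps to miR-30a-5p were at least 3.07 for miR-30b-5p and 2.06 for miR-30f. That floor, 18.8, is the supernatant signal of the 14-base miR-30a-5p probe itself, so it is not independent of miR-30a-5p. With normexp background correction, which adds an offset of 50, the gaps to miR-30a-5p shrank to at least 0.78 and 0.59. That offset is larger than the exosome signals of miR-30b-5p (35.1) and miR-30f (22.3).

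**Figure D3:**
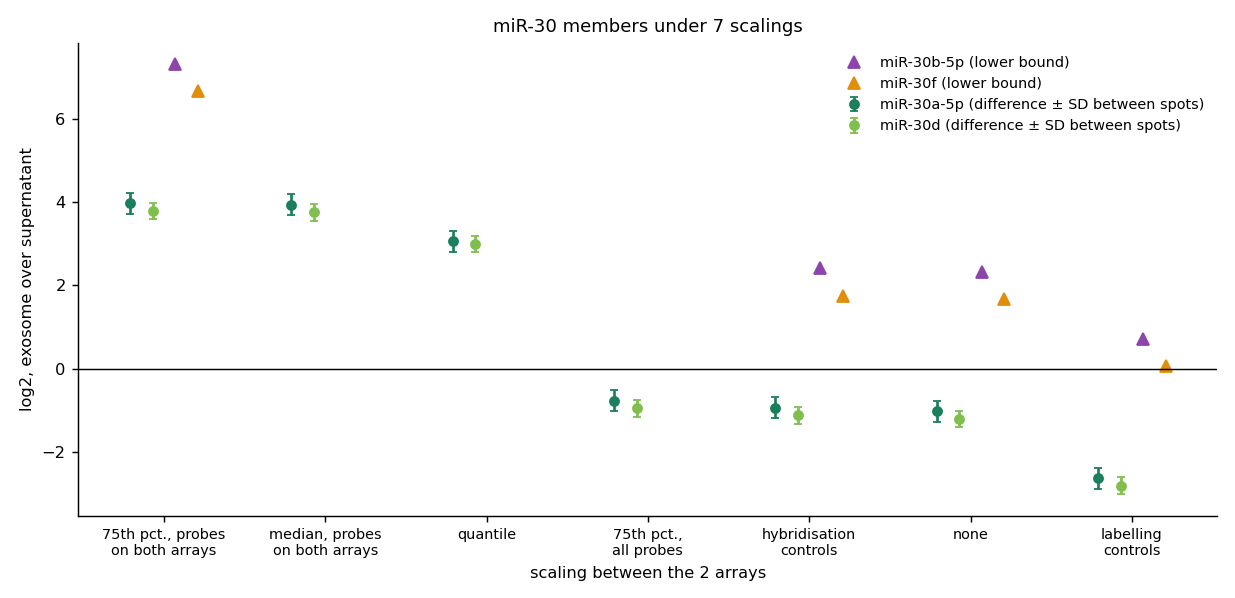
Log2 difference of miR-30a-5p and miR-30d (circles, ± SD between spots) and lower bound of miR-30b-5p and miR-30f (triangles, over all probes, against the lowest detected miRNA), exosome over supernatant, under 7 scalings on the x axis, with bounds computed under 4 of them. The circles lie above 0 under 3 scalings and below 0 under 4, and the triangles lie above the circles wherever both are drawn.

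Among the 30 miRNAs detected on both arrays, miR-30a-5p ranked 11 and miR-30d 12 by the difference, exosome over supernatant. They lay 2.66 and 2.48 above the median of 1.30 on the scaled log2 axis. The miRNA nearest to both was miR-320, at 105.5 ± 9.12 in exosome and 214 ± 14.2 in supernatant, whose scaled difference of 3.97 was 0.0075 from that of miR-30a-5p and 0.19 from that of miR-30d over the 2 arrays. Next to miR-30a-5p came miR-2304 at 4.24 and miR-664 at 4.38, and next to miR-30d came miR-2291 at 3.44 and miR-2304.

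**Figure D4:**
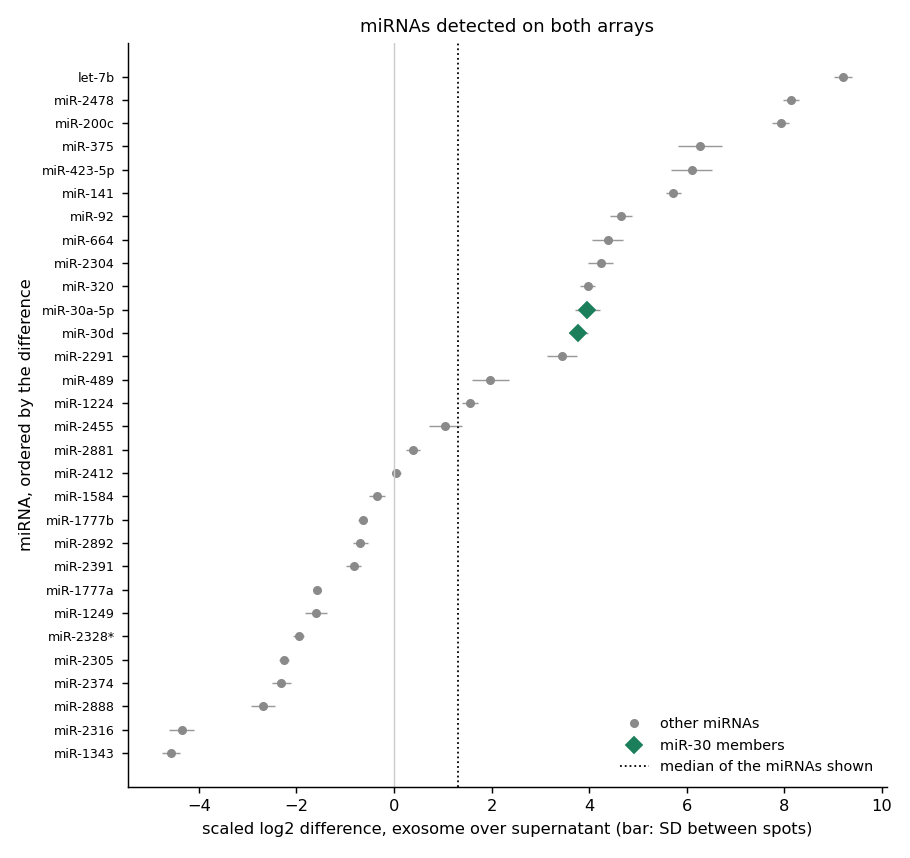
The 30 miRNAs detected on both arrays, from the highest to the lowest scaled log2 difference, exosome over supernatant, with bars for the SD between spots and a dotted line at their median. The miR-30 members (diamonds) sit at ranks 11 and 12, above the median of 1.30.

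The let-7, miR-29 and miR-200 families also had members detected on the exosome array only. None had a member on the supernatant array only, which says little in families of 5 to 10 entries where that class holds 8.21% of all miRNAs. The counts were not tested against each other. The let-7 and miR-98 family, known for its part in developmental timing, had 10 entries, with 5 on the exosome array alone and 1 on both. let-7b read 828 ± 47.6 in exosome and 44.6 ± 5.26 in supernatant, let-7a 385 ± 23.9 and 2.32 ± 3.27, and let-7c 112 ± 12.01 and 5.71 ± 3.25. Unlike the miR-30 members on both arrays, let-7b was brighter on the exosome array without scaling, by 4.21 on the log2 scale.

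The epithelial miR-200 family with miR-141 and miR-429 had 5 entries, with 2 on the exosome array alone and 2 on both. Those classes hold 5.37% and 4.48% of all miRNAs. miR-200c read 343 ± 24.5 in exosome and 44.7 ± 4.47 in supernatant, miR-141 302 ± 21.1 and 181 ± 14.1, and miR-200b 88.5 ± 9.70 and 2.18 ± 3.12. Of 5 miR-29 entries, a family known for acting on collagen genes, 3 were on the exosome array only. They were miR-29c at 53.5 ± 6.36 in exosome and 6.13 ± 3.603 in supernatant, miR-29a at 27.8 ± 4.50 and 1.34 ± 3.00, and miR-29b at 12.7 ± 3.29 and 3.21 ± 3.82.

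Probe base content moved with the split inside the family. The longest probes of miR-30d and miR-30a-5p, on both arrays, were 66.7% and 60% G and C at 15 bases each. Those of miR-30f and miR-30b-5p, on the exosome array only, were 52.9% and 44.4% at 17 and 18 bases. Over the whole array the median was 46.9% for miRNAs on the exosome array only and 70.7% for those on both, with median lengths of 18 and 13 bases. It was 71.4% for those on the supernatant array only and 47.4% for those on neither, with median lengths of 14 and 17 bases. The exosome-only median was thus close to that of the undetected miRNAs. The undetected miR-30c, miR-30e-5p and miR-30b-3p had 50%, 50% and 44.4%. The part of base content and probe length in the split was not tested.

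**Figure D5:**
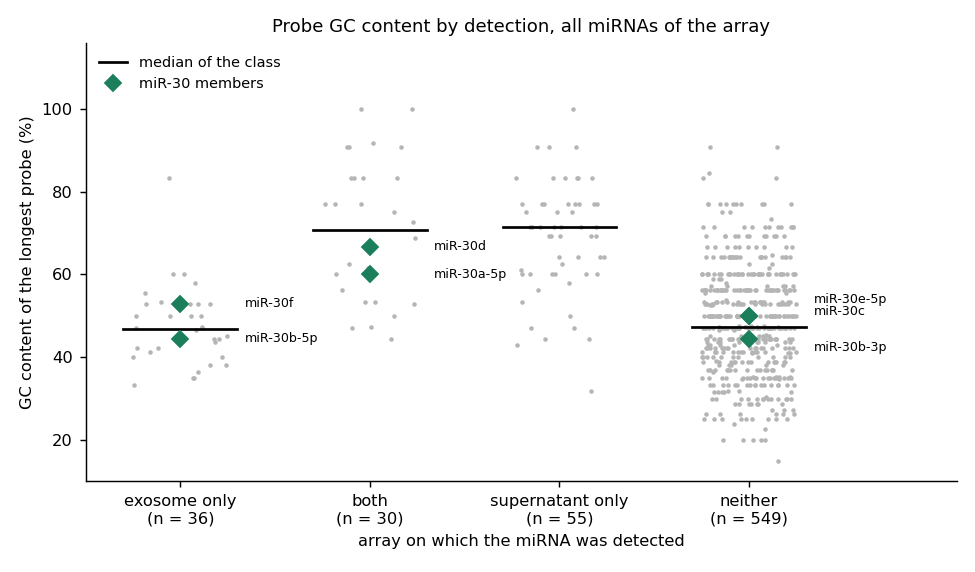
Percentage of G and C in the longest probe of each miRNA, by the array on which the miRNA was detected, with a line at each class median and diamonds for the miR-30 members. The members on both arrays lie at 60% and 66.7%, and those on the exosome array only at 44.4% and 52.9%.

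Markers of other cells were read on the same arrays, as unscaled signals. Of all 670 miRNAs, 121 were detected on at least 1 array, which is the share to set beside the counts below. The mammary epithelial list shares 5 of its 6 miRNAs with the miR-200 family, and 5 of the 6 were detected, with summed signals of 878 in exosome and 231 in supernatant. The leukocyte markers summed to 2.35 and 15.98 in the same fractions, with 1 of 5 detected (miR-223), and the red blood cell markers to -2.10 and 33.4, with 1 of 3 detected (miR-486). The muscle markers summed to 5.31 in exosome and 158 in supernatant, with 2 of 4 detected (miR-133a and miR-133b). The detected blood and muscle markers were on the supernatant array only, a class with 8.21% of all miRNAs. The other leukocyte, red blood cell and muscle markers, miR-1 and miR-206 among them, were detected on neither array. The blood marker miR-451 lay below 0 on both arrays, and the liver marker miR-122 was detected on neither. Whether blood or muscle RNA has any part in what miR-30a-5p and miR-30d read in supernatant was not tested.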

How the data were processed

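Spot intensities were deposited by the authors as 1-colour scanner output of Agilent Feature Extraction 10.7.3.1, per the file headers and the submitters' processing notes. The processed signal is background-subtracted and not scaled between arrays. The authors' deposited value table holds log2 values, namely those of the software's total signal per miRNA over 0.1, with a largest deviation of 6.2e-06, and its median is 0 in both columns over 691 entries; further steps are not given in the sources used here.

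From these files, outlier spots were removed, spots were averaged per probe and probes per miRNA on the linear scale, and values were divided by each array's 75th percentile (over probes detected in both fractions) before taking log2. SDs of a miRNA's probes were combined as their root mean square. Where 1 fraction was dim, a lower bound used the lowest signal of any detected miRNA (by probe, of any detected probe) there, or the dim signal itself if higher. There were 42364 spots per array, 40200 of them for 1465 miRNA probes. No test was run, as each fraction has 1 array, and the number of arrays limits precision. All miR-30 entries were named, with the 3 nearest miRNAs to each member on both arrays and the 3 brightest detected of each comparison family. Members and lists were chosen with earlier results of these data known. On simulated data, detection and the differences were checked after the median difference of the unchanged miRNAs was taken out. That check did not cover the choice of scaling or the lower bounds. Mature miRNA sequences were not used here. Alternatives covered scaling, background correction, probe summary, detection rule and spots. Normexp was run with limma 3.58.1 in R 4.3.3, and all else with pandas 2.3.3 and numpy 2.4.6 under Python 3.11.15.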

Additional observations from a re-analysis of the deposited data

How the results depend on the processing

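The supernatant count of 2 members held under all 6 detection settings. The exosome count stayed at 4 or 5 except where every probe was required, which left 1 (miR-30d), below the supernatant count. That strict rule also cut the count over all 670 miRNAs, from 66 to 35 on the exosome array and from 85 to 74 on the supernatant array. The software's gene-level flag gave 79 and 91 of all miRNAs on the exosome and supernatant arrays. The differences of miR-30a-5p and miR-30d, 3.96 and 3.78, turned to -1.03 and -1.21 without scaling, -0.77 and -0.96 with the 75th percentile of all probes, -0.94 and -1.12 with hybridisation controls, -2.63 and -2.81 with labelling controls, and -1.18 and -1.21 in the unscaled value table. The change without scaling is the construction of the scaling itself: the log2 ratio of the 75th percentiles, exosome over supernatant, is -4.99. They moved to 3.06 and 2.99 with quantile normalization, and miR-30d to 4.015 with normexp and 3.98 with the software's total signal. The log2 bounds of miR-30b-5p and miR-30f, 7.31 and 6.65, moved to 2.32 and 1.66 without scaling, 0.71 and 0.059 with labelling controls, 2.403 and 1.75 with hybridisation controls, and 4.94 and 4.75 with normexp. Taking only the longest probe against the lowest detected probe, a choice made after seeing the data, gave 7.05 and 6.05, or 2.065 and 1.06 without scaling, 2.15 and 1.15 with hybridisation controls, and 0.46 and -0.54 with labelling controls, where miR-30f has no bound. The gaps of miR-30b-5p to miR-30a-5p and miR-30d fell to 0.78 and 0.93 with normexp, and those of miR-30f to 0.59 and 0.73; the longest probe gave 2.06 and 2.33 for miR-30f. The gaps were added after seeing the data. No paired analysis was possible because each fraction has 1 array. Probes near the lowest detected signal, such as the 14-base miR-30a-5p probe, limit what dim members can show.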
